A study of Mus musculus with 4 samples.

Results

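The 9 genes described here are Gfap, Aqp4, Aldh1l1, Slc1a3, Slc1a2, Gja1, Agt, Slc6a11 and Mfge8, which are widely used to mark astrocytes. They were taken by symbol from a spatial count table of the mouse brain, and all 9 were among its 19465 genes. Each gene was followed across cortex, striatum, white matter, hypothalamus and thalamus, and across the 4 barcode sets into which the endings of the spot names split the table. The regions were chosen from neuronal and myelin genes, so no level of these 9 genes was used to place a spot.

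Astrocytes are the glial cells that take up transmitter, buffer ions and water, and contact blood vessels and the brain surface with their endfeet. They differ by place. Protoplasmic astrocytes fill grey matter, fibrous astrocytes of white matter and the astrocytes under the pial surface are rich in the intermediate filament protein GFAP, and astrocytes of the telencephalon and of the diencephalon express different transporter and transcription factor genes.

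The study placed coronal sections of formalin-fixed, paraffin-embedded brain, trimmed to show the striatum, on the Visium CytAssist platform, which captures gene-specific probes on an array of barcoded spots. It sampled 4 mice, 2 wild type and 2 heterozygous for Celsr3, an adhesion receptor gene that guides axon growth. No mouse was treated. The ages of the animals are not given in the sources used here.

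The ending of a spot name matched no mouse, genotype or replicate in the labels, so the 4 barcode sets were placed in no group and the genotypes were not compared. Every value is given per set, or as a range over sets, with no test over sets. Of 12602 spots, 12601 had at least 500 counts and were kept. The sets shared barcodes, with 3376 of 4744 barcodes present in more than 1 set and 1613 in all 4. A spot covers a small patch of tissue that can hold several cells of different types, so fewer astrocytes and less RNA per astrocyte cannot be told apart.

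By their marker genes, 4158 spots were cortex, 2875 striatum, 2342 white matter, 1373 hypothalamus and 419 thalamus, and 1434 were left unassigned. Sets 1 and 4 held 133 and 284 thalamus spots, and sets 2 and 3 held 1 each, so thalamus values are from sets 1 and 4 alone. The spots were placed by these same genes, so the levels of the markers are no separate check of the regions. The region markers were highest in their own region for 14 of 14 striatum, 12 of 12 white matter, 12 of 12 hypothalamus and 10 of 10 thalamus genes. The same was true for 9 of 12 cortex genes, with Rorb highest in thalamus, Rasgrf2 in hypothalamus and Kcnh3 in striatum. The median spot held between 32804 and 68829.5 counts in cortex over the sets, 24162 to 48205 in striatum, 19070 to 39009.5 in white matter, 28411 to 52594 in hypothalamus and 34497 to 82190 in thalamus. A level is the number of counts of a gene per 1000000 counts (CPM) of all spots of a region in a set, and the 95% intervals beside them reflect counting error alone. Probe counts of different genes are not on a common scale, so levels were compared between places and never between genes.

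The label of the genes was checked with 24 other astrocyte genes in the table, among them Aldoc, S100b, Sox9 and Kcnj10. All 24 had counts in every region, and their summed level was 6822 to 8558 CPM in cortex, 7105 to 8474 in striatum, 11048 to 14413 in white matter, 9665 to 12519 in hypothalamus and 9265 to 11830.4 in thalamus. Relative to cortex of the same set, this sum was 0.937 to 1.05 in striatum, 1.48 to 1.72 in white matter, 1.42 to 1.49 in hypothalamus and 1.34 to 1.41 in thalamus. The summed astrocyte signal thus varied by less than 2-fold between regions, and the 9 genes are set against it at the end of their description.

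Upstream sequences are printed for the 4 transporter and hormone precursor genes whose regional levels are tied to one another below: Agt and Slc6a11, which were high in the same places, Slc1a2, which was low there, and Slc1a3, the glutamate transporter that did not follow Slc1a2. They are the 250 bases before the gene start in RefSeq's annotation of GRCm38.p6, 5′ to 3′ on the gene's own strand. Agt lies at chr8:124569707-124569956 on the minus strand, Slc6a11 at chr6:114130991-114131240 on the plus strand, Slc1a2 at chr2:102706188-102706437 on the plus strand and Slc1a3 at chr15:8710808-8711057 on the minus strand. Capitals mark every match, on either strand, to any of 5 motifs that were searched. TTGGCA is the core site bound by factors of the NFI family. The letters TTCNNNGAA describe the site of STAT factors. ACAAT is the core of the site of SOX factors. The core of many homeodomain sites is written TAATTA. The TATA box, which positions the start of transcription, was searched as TATAAA. No match overlapped another.
Agt: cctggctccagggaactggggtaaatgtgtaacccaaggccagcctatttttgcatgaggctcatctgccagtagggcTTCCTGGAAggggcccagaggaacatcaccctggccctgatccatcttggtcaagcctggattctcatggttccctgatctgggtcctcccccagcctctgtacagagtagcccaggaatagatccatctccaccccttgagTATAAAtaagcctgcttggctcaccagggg
Slc6a11: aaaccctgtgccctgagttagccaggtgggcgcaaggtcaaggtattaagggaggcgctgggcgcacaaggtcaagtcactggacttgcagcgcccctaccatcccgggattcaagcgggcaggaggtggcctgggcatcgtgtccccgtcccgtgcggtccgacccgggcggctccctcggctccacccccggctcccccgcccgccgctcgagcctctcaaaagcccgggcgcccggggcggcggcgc
Slc1a2: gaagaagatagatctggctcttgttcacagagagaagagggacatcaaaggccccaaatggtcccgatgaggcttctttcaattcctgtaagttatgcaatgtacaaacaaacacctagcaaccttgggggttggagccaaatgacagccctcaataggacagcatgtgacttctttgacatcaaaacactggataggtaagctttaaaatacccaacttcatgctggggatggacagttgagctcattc
Slc1a3: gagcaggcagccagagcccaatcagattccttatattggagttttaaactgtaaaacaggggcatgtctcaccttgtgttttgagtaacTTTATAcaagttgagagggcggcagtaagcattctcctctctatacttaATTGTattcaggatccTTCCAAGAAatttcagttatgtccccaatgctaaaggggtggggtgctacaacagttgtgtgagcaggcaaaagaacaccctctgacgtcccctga

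Agt held a STAT match, TTCCTGGAA, at 172 bases before its start and a TATA box at 30 bases before it. Slc1a3 held a STAT match, TTCCAAGAA, at 96 bases before its start, and on the other strand a SOX match at 112 bases and a TATA box at 161 bases. Slc6a11 and Slc1a2 held none of these letters in the window. GC content was 71.2% for Slc6a11, 55.6% for Agt and 44.8% for both Slc1a2 and Slc1a3. Of 32851 promoter windows of this length, 12.28% held an NFI site, 7.02% a STAT, 27.66% a SOX, 4.84% a homeodomain and 12.37% a TATA match. A match is a description of letters and not a bound site. Upstream windows were read for 8 of the 9 genes, all but Aqp4. Gfap, Aldh1l1, Gja1 and Mfge8 had no match to these motifs.

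Gfap, which encodes the intermediate filament protein of fibrous and reactive astrocytes, was highest in white matter in every set. It was at 537, 389, 438 and 374 CPM in white matter of sets 1 to 4 and at 41.3, 51.2, 31.6 and 29.8 CPM in cortex. White matter was far above cortex in each set, and the values did not overlap. White matter was 13.0, 7.59, 13.9 and 12.6 times cortex, and the counting interval ran from 7.21 to 7.99 for set 2 and from 13.2 to 14.5 for set 3. Hypothalamus was the next highest region, at 145, 97.0, 50.6 and 127 CPM, below white matter in all 4 sets. Set 3 was the lowest of these and came near to cortex, so the hypothalamus to cortex ratio ran from 1.60 to 4.25. Thalamus was at 50.8 and 43.3 CPM in sets 1 and 4, and striatum at 39.7, 40.3, 38.1 and 74.0 CPM. Thalamus, striatum and cortex had overlapping ranges, and set 4 stood above the others in striatum.

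Aqp4 encodes the water channel of astrocyte endfeet. Its level was 207, 117, 107 and 129 CPM in white matter and 60.8, 52.2, 41.9 and 44.2 CPM in cortex. White matter exceeded cortex by 2.23-fold to 3.40-fold. Thalamus was at 126 and 99.8 CPM, which was 2.08 and 2.26 times cortex of the same sets, while hypothalamus was at 97.8, 57.5, 46.0 and 61.9 CPM. Thalamus lay above hypothalamus in both sets that held it, and the ranges of hypothalamus, striatum and cortex overlapped. The thalamus to hypothalamus ratio of Aqp4 was 1.29 and 1.61, where that of Gfap was 0.351 and 0.342.

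Gja1, the gene of the main gap junction protein of astrocytes, rose from cortex to white matter with little spread. It was at 233, 268, 221 and 247 CPM in cortex, 284, 293, 277 and 301 in striatum and 493, 546, 541 and 561 in white matter. The ranges of cortex, striatum and white matter did not overlap, although striatum was only 1.09-fold to 1.25-fold above cortex. Hypothalamus (365 to 498 CPM) and thalamus (426 and 456 CPM) lay above striatum and overlapped each other. Both were below white matter of the same set.

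Aldh1l1, an enzyme of folate metabolism used as a general astrocyte marker, differed least between regions. Its level was 54.5, 44.0, 56.8 and 34.3 CPM in cortex and 71.4, 59.6, 74.2 and 49.6 CPM in white matter. White matter was the higher in each set, by 1.31-fold to 1.45-fold, but the spread between sets was as large as that difference and the ranges overlapped. Striatum was at 33.7 to 50.3 CPM, hypothalamus at 36.0 to 55.0 and thalamus at 37.9 and 55.8. Set 4 was the lowest in all 5 regions.

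The glutamate transporter genes Slc1a2 (GLT-1) and Slc1a3 (GLAST), whose products clear synaptic glutamate, differed most in hypothalamus, the lowest region for Slc1a2 and the highest for Slc1a3. Slc1a2 was at 2035, 1799, 1740 and 2193 CPM in cortex and at 941, 858, 830 and 895 CPM in hypothalamus. Hypothalamus was the lowest region in every set, at 0.408 to 0.477 of cortex. Thalamus was at 1113 and 1287 CPM, and white matter at 1401, 1443, 1648 and 1424 CPM. These did not overlap, and thalamus was in turn above hypothalamus in both sets. Striatum, at 1482 to 1994 CPM, was close to cortex but below it in each set, at 0.824 to 0.975 of it.

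Slc1a3 was at 522, 770, 498 and 771 CPM in hypothalamus and at 337, 452, 297 and 454 CPM in cortex. Sets 2 and 4 were the higher in both regions, and within each set hypothalamus was 1.55-fold to 1.70-fold above cortex. Thalamus was at 346 and 424 CPM, 1.03 and 0.934 times cortex. The low Slc1a2 of thalamus thus came without the high Slc1a3 seen in hypothalamus. White matter lay at 433 to 537 CPM and striatum at 282 to 416, with ranges that overlapped cortex.

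Slc6a11 encodes the GABA transporter GAT-3, found on astrocyte processes. It was at 927, 839, 717 and 650 CPM in hypothalamus, 876 and 615 in thalamus and 549, 454, 470 and 498 in white matter. Cortex was at 158, 116, 119 and 103 CPM and striatum at 104, 72.5, 72.6 and 63.8 CPM. Hypothalamus and thalamus overlapped each other and lay above white matter, which lay above cortex and striatum. Hypothalamus exceeded cortex by 5.88-fold to 7.20-fold and thalamus by 5.56-fold and 5.97-fold. Striatum was the lowest region in every set, at 0.612 to 0.661 of cortex.

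Agt, the gene of angiotensinogen, the precursor of the angiotensin peptides, had the widest range of the 9. It was at 6.82, 9.27, 6.99 and 10.7 CPM in cortex, at 8.96, 8.78, 9.34 and 13.5 in striatum and at 375, 353, 314 and 388 in hypothalamus. These values rested on 1773 counts over all cortex spots, 1071 over striatum and 20124 over hypothalamus. Cortex and striatum were near one another, and hypothalamus was at least 28.8 times either in every set. The hypothalamus to cortex ratio was 55.0, 38.1, 45.0 and 36.2 in sets 1 to 4, with a counting interval from 49.7 to 61.0 in the first. White matter was at 191, 147, 185 and 295 CPM and thalamus at 238 and 248. White matter and thalamus overlapped, and both lay below hypothalamus of the same set.

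Mfge8, which encodes a secreted protein that bridges dying cells or debris to phagocytes, had overlapping ranges in 4 of the 5 regions. It was at 128, 142, 165 and 127 CPM in cortex, 105 to 157 in striatum, 97.2 to 181 in white matter and 113 to 208 in hypothalamus. Thalamus was the exception, at 72.8 and 58.0 CPM, 0.569 and 0.457 times cortex. Both thalamus values lay below every other region of every set.

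**Figure D1:**
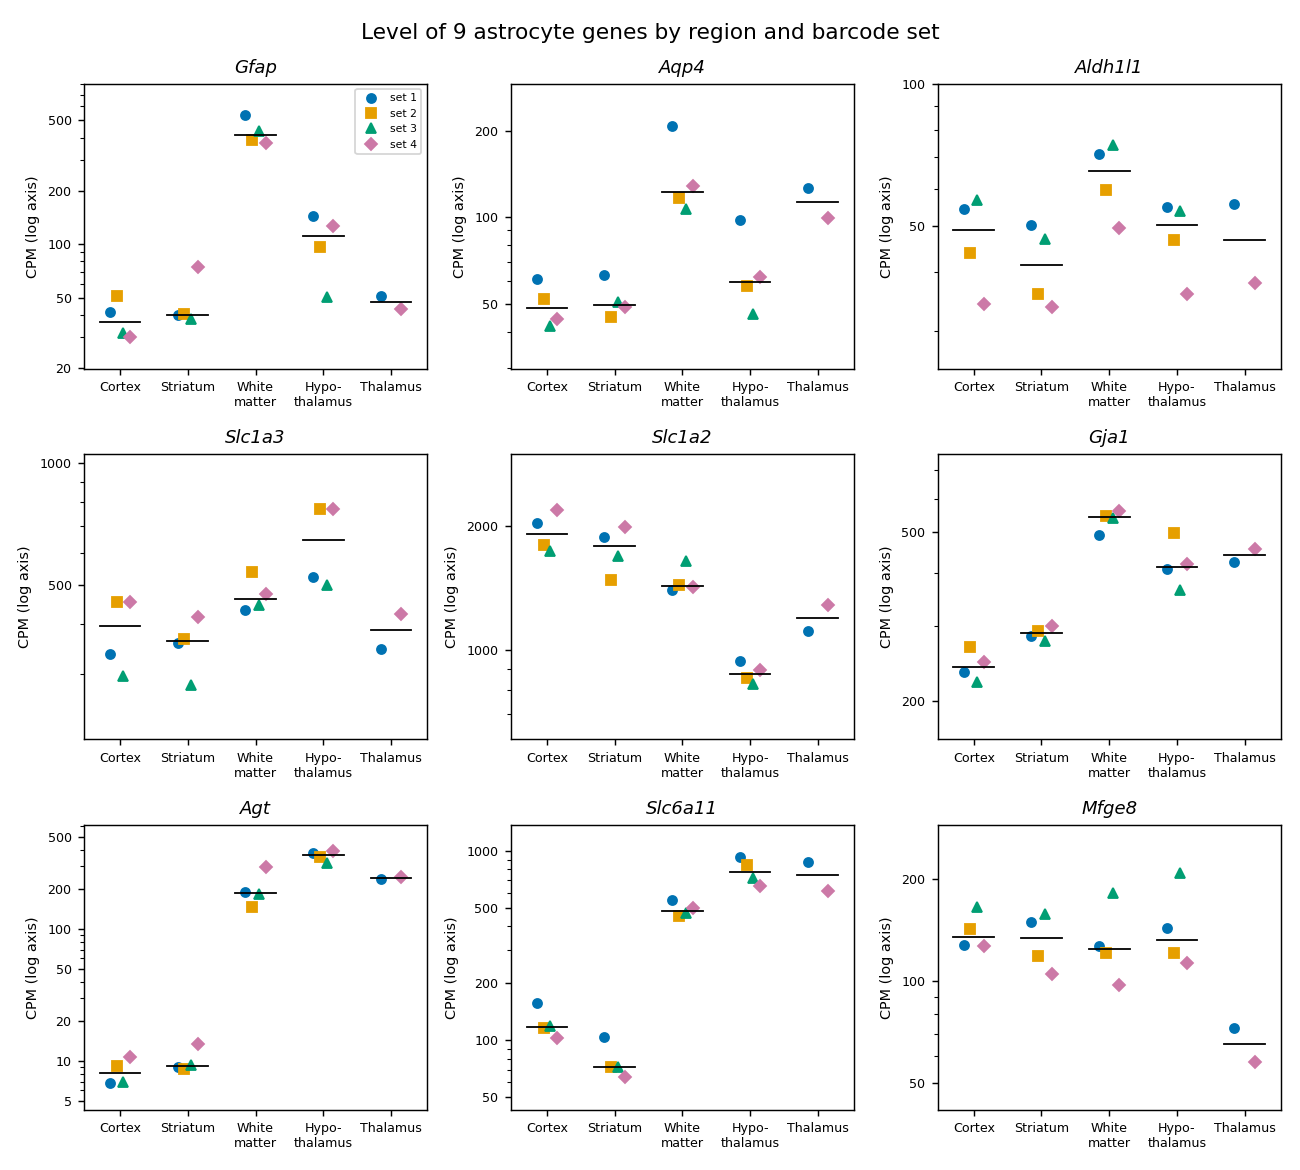
Level of each of the 9 genes in CPM (log axis, 1 panel per gene with its own scale) by region, with 1 symbol per barcode set and a line at the median over sets; thalamus has sets 1 and 4 alone. Agt and Slc6a11 are high in white matter, hypothalamus and thalamus, Gfap stands out in white matter, Slc1a2 is lowest in hypothalamus and Mfge8 is lowest in thalamus.

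The members were then read against all genes. A gene with a mean of at least 10 CPM in the regions compared was counted as higher or lower when the ratio of CPM + 1 passed 1.5-fold in the same direction in every set that held both regions. All 4 comparisons with cortex share the cortex spots. Against cortex, 5 of the 9 genes were higher in white matter (Gfap, Aqp4, Gja1, Agt and Slc6a11) and 0 were lower, where 11.9% of 10171 genes were higher, 8.26% lower and 20.2% either. In hypothalamus 5 were higher (Gfap, Slc1a3, Gja1, Agt and Slc6a11) and Slc1a2 was lower, beside 12% of genes higher, 8.98% lower and 20.9% either. Thalamus had 4 higher (Aqp4, Gja1, Agt and Slc6a11) and 2 lower (Slc1a2 and Mfge8), beside 11.0%, 9.78% and 20.8% of genes. In striatum 8 of the 9 passed the level filter, all but Agt, and Slc6a11 alone was lower, with 0 higher, beside 10.5% of genes lower and 8.07% higher.

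The median log2 ratio to cortex over all 9 members was 1.13 in white matter, 0.75 in hypothalamus, 0.41 in thalamus and -0.10 in striatum. Agt was included in striatum, although it did not pass the level filter there. Over all genes tested it was 0.04, 0.14, 0.08 and 0.02. Agt, which was at 6.82 to 10.7 CPM in cortex, passed the level filter through the regions where it was high, so its call there followed from the filter in part and the shares of members and of all genes are not compared. In striatum, where Agt did not pass, 1 of 8 members was called, beside 18.5% of genes in either direction. Scaling the regions by edgeR's TMM factors lowered all hypothalamus to cortex log2 ratios by a median of 0.26 and all white matter ones by 0.25. With it Gfap, Slc1a3 and Gja1 no longer passed 1.5-fold in hypothalamus in every set, at median log2 ratios of 1.13, 0.48 and 0.52. Counts per spot, with no scaling, also ended these 3 calls, ended those of Aqp4 (0.65) and Gja1 (0.30) in white matter and of Mfge8 (-0.75) in thalamus, and put Slc1a2 (-1.28) and Mfge8 (-1.01) below cortex in white matter. The Slc6a11 call in striatum ended without the spots highest in ventricle and surface markers, although its median log2 ratio stayed at -0.69.

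**Figure D2:**
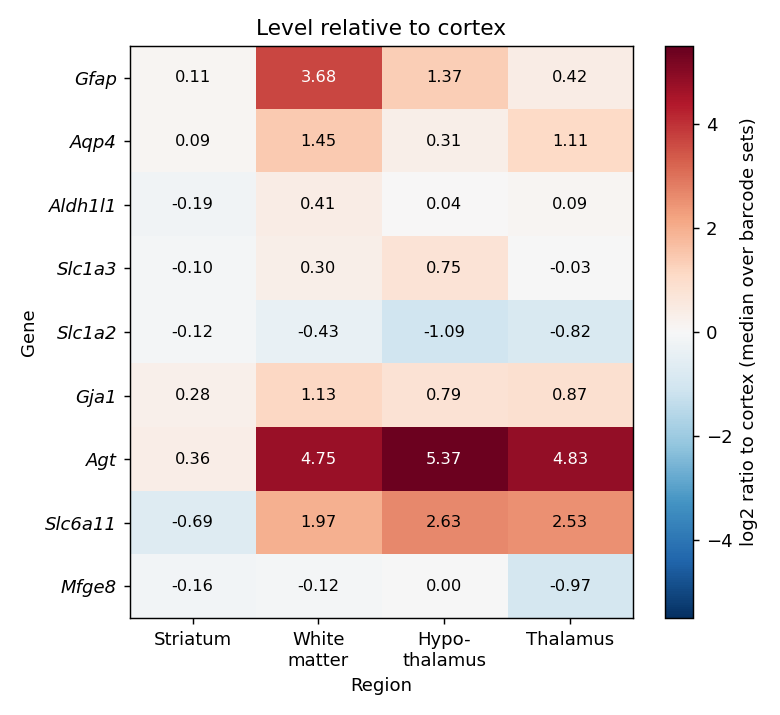
Median over barcode sets of the log2 ratio to cortex for the 9 genes (rows) in 4 regions (columns), red for higher and blue for lower than cortex. Agt reaches 5.37 in hypothalamus and Gfap 3.68 in white matter, while Slc1a2 is at -1.09 in hypothalamus and all striatum values lie between -0.69 and 0.36.

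The non-cortical regions were also compared with one another. Against white matter, hypothalamus was lower for Gfap, at 0.115 to 0.339 of it, and for Aqp4, at 0.429 to 0.494, and higher for 0 members, where 7.19% of genes were lower and 6.27% higher. Thalamus was lower than white matter for Gfap (0.0947 and 0.116) and Mfge8 (0.575 and 0.596), beside 11.9% of genes lower, and higher for 0 members, beside 9.07% higher and 21.0% in either direction. Against hypothalamus, thalamus was lower for Gfap (0.342 and 0.351), Slc1a3 (0.549 and 0.664), Agt (0.634 and 0.638) and Mfge8 (0.507 and 0.514). It was higher for 0 members, where 7.55% of genes were lower and 6.4% higher. Slc6a11 differed little between the pair, at 0.945 and 0.946. Against striatum, hypothalamus was higher for Agt (28.8-fold to 41.9-fold) and Slc6a11 (8.89-fold to 11.6-fold) and lower for Slc1a2 (0.449 to 0.579). Of all genes, 15.7% were higher, 9.66% lower and 25.4% either. The share in either direction was 13.5% for hypothalamus against white matter and 14.0% for thalamus against hypothalamus. The 2 of 9 members called for thalamus against white matter are near the share of all genes. Agt, at 8.78 to 13.5 CPM in striatum, was near the level filter there, so the 3 of 9 called for hypothalamus against striatum are a description. No number of members called between these regions is read as a result about the members.

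Relative to the summed 24 astrocyte genes, the members separated in white matter, hypothalamus and thalamus and little in striatum. The striatum medians were 0.622 for Slc6a11 and 0.878 to 1.25 for the other 8. In hypothalamus Agt kept a median of 29.0 times its cortex share of that sum and Slc6a11 4.25 times, Gfap was at 1.77, Slc1a3 and Gja1 were near it at 1.16 and 1.18, and Slc1a2 was below it at 0.323. In white matter the medians were 15.8 for Agt, 7.71 for Gfap, 2.48 for Slc6a11, 1.60 for Aqp4 and 0.484 for Slc1a2. In thalamus Agt was at 20.6, Slc6a11 at 4.19, Aqp4 at 1.57, Gfap at 0.973 and Slc1a2 at 0.412. Aldh1l1 was below the sum in white matter, hypothalamus and thalamus, at medians of 0.831, 0.695 and 0.773, and so was Mfge8, at 0.598, 0.675 and 0.371.

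White-matter spots were not of a single kind. Each was sorted by the region list with the next highest score, a split chosen after the data were seen: cortex next in 331 spots, striatum in 308, hypothalamus in 660 and thalamus in 1043. Mbp, the myelin basic protein gene, was at 12665 to 22915 CPM in the cortex-next spots and 11760 to 21423 in the hypothalamus-next spots. It is a marker by which these spots were placed, so its high level follows from that choice and is no separate check. Agt was at 5.93, 13.7, 8.57 and 27.3 CPM in the cortex-next spots of sets 1 to 4 and at 369, 297, 341 and 384 CPM in the hypothalamus-next spots. The classes name the next highest marker score of a spot and not its position in the tissue. In the cortex-next spots Agt was thus near the cortex level in sets 1 to 3 and 2.54 times it in set 4. In the hypothalamus-next spots it was 0.840 to 1.09 times the hypothalamus level. The striatum-next spots lay between, at 45.6 to 163 CPM.

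Slc6a11 split the same way, with 129, 91.7, 107 and 117 CPM in cortex-next and 896, 771, 751 and 589 CPM in hypothalamus-next white matter. Slc1a2 split in reverse, with 2314, 1958, 2079 and 2245 CPM in cortex-next and 1076, 1018, 1240 and 1182 CPM in hypothalamus-next spots. The hypothalamus-next to cortex-next ratio was 14.1 to 62.2 for Agt, 5.05 to 8.41 for Slc6a11 and 0.465 to 0.597 for Slc1a2. Slc1a2 in hypothalamus-next spots remained 1.14 to 1.49 times its hypothalamus level. Gfap did not follow: it was at 335, 413, 387 and 519 CPM in cortex-next and 290, 291, 268 and 292 CPM in hypothalamus-next spots, 8.06 to 17.4 times and 2.00 to 5.30 times the grey matter of the same name. The thalamus-next spots had Gfap at 384 to 741 CPM and Agt at 153 to 337 CPM, and 337 of them came from sets 2 and 3, which held almost no thalamus. A spot can take in both a fibre tract and the grey matter beside it, and the share of Agt, Slc6a11 and Slc1a2 counts from each cannot be told apart. The next list's score was above 0 in 292 of the 331 cortex-next and 474 of the 660 hypothalamus-next spots. In these spots alone, Gfap was at 109 to 260 CPM in the hypothalamus-next class, which overlaps hypothalamus, and at 303 to 411 CPM in the cortex-next class. Agt was at 5.41 to 13.1 CPM in the cortex-next and 325 to 405 CPM in the hypothalamus-next class, so the higher cortex-next value of set 4 was not seen there.

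**Figure D3:**
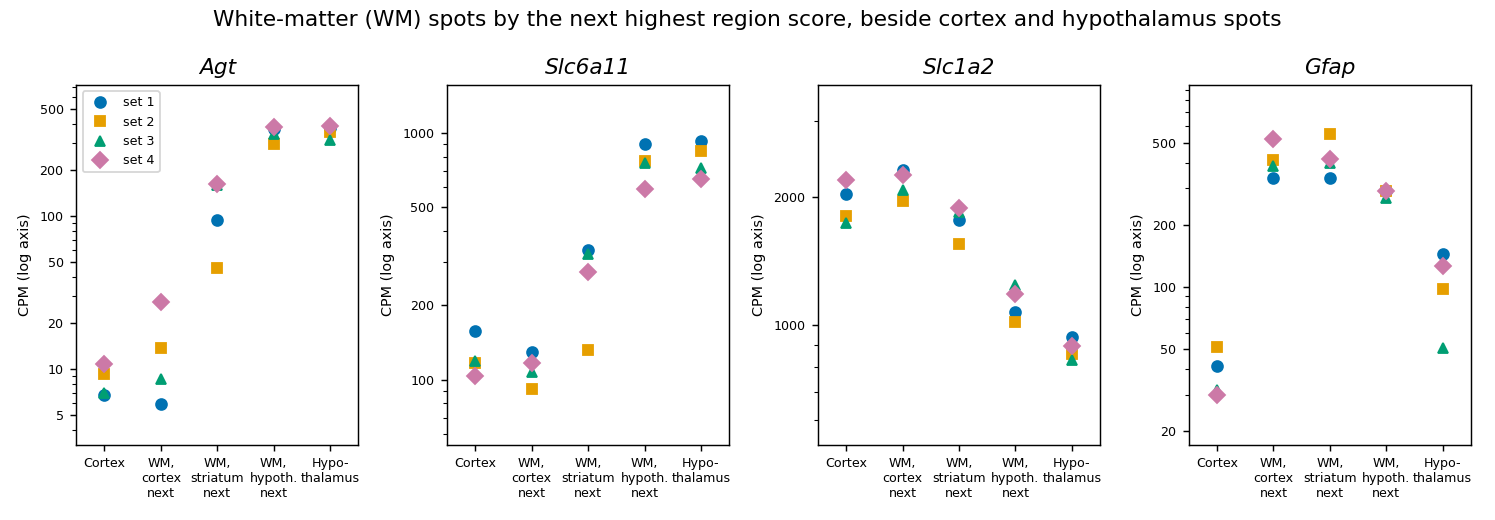
CPM (log axis) of Agt, Slc6a11, Slc1a2 and Gfap in cortex spots, in white-matter spots whose next highest score was cortex, striatum or hypothalamus, and in hypothalamus spots, with 1 symbol per barcode set. Agt and Slc6a11 are higher and Slc1a2 is lower in hypothalamus-next than in cortex-next spots of every set, while Gfap is at 268 CPM or more in all 3 white-matter classes as drawn, at 109 to 260 CPM in the hypothalamus-next spots with a hypothalamus score above 0, and at 145 CPM or less in cortex and hypothalamus.

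Within cortex, Gfap counts were concentrated in few spots. For each gene the 10% of spots highest in that gene were taken, so the share is a description of unevenness. They held 50.8% to 57.4% of Gfap counts and 42.7% to 46.3% of those of Agt, which had few counts there. They held 9.20% to 12.1% for Slc1a2, 14.9% to 16.8% for Gja1 and 21.4% to 25.7% for Aqp4. The Gfap share in hypothalamus was similar, at 48.7% to 57.6%. Cortex spots were then split by meninges markers such as Dcn and Col1a2, taking the 398 spots in the top 10% of each set, a split also chosen after the data were seen. Gfap was at 163 to 416 CPM in these spots and 21.4 to 29.1 CPM in the other cortex spots, 7.06-fold to 15.8-fold higher. Aqp4 was 2.25-fold to 4.19-fold higher, Slc1a3 1.82-fold to 2.39-fold, Gja1 1.89-fold to 2.58-fold, Mfge8 1.69-fold to 1.92-fold, and Slc6a11 the least, at 1.18-fold to 1.48-fold. All 9 were higher in the meninges-marker spots in every set, by very different amounts.

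**Figure D4:**
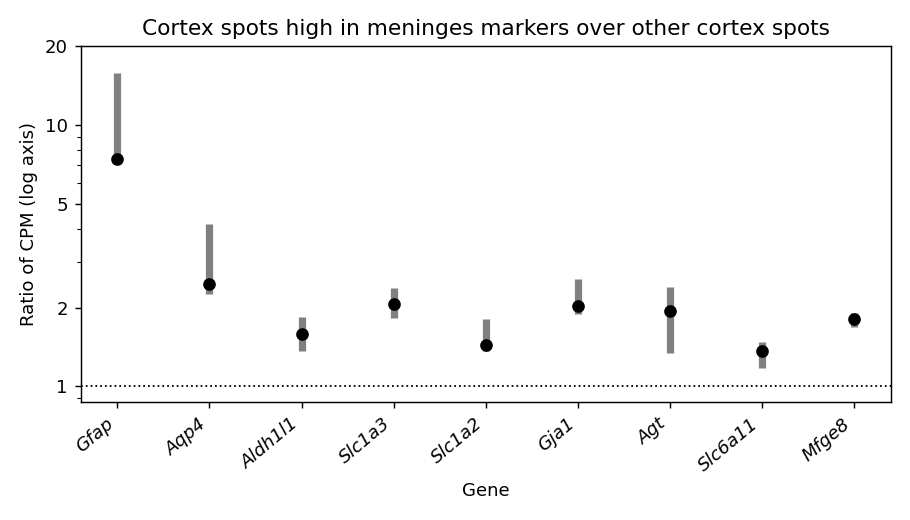
Ratio of CPM (log axis) in the cortex spots highest in meninges markers to CPM in the other cortex spots for the 9 genes, with a dot at the median and a bar from the lowest to the highest of the 4 barcode sets and a dotted line at 1. Gfap lies at 7.06 or above, and the other genes lie between 1.18 and 4.19.

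Ependymal markers, from the ciliated cells that line the ventricles, also moved with Gfap. Their summed level was 48.1 to 64.6 CPM in cortex, 84.2 to 115 in striatum, 127 to 305 in white matter, 176 to 309 in hypothalamus and 99.5 to 104 in thalamus, and 0 of the 8 were at 0. In the 10% of white-matter spots highest in them Gfap was 1.95-fold to 2.34-fold above the other white-matter spots, which still held 296 to 438 CPM. In hypothalamus the same split gave 1.20-fold to 4.47-fold, with 34.1 to 141 CPM in the other spots. Agt in the same hypothalamus split was 1.08-fold to 1.42-fold higher, with 299.7 to 378 CPM in the rest. Choroid plexus markers were summed at 72.5 to 5358 CPM in white matter, 109 to 4035 in striatum and 12.02 to 86.5 in cortex, and their part in the CPM of other genes is covered by the alternative without ventricle and surface spots.

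The share of spots with a count gave the same picture for Agt after each spot was thinned to 10000 counts, which left out 69 cortex spots and at most 25 in any other region. Agt was then seen in 6.09% to 10.2% of cortex spots, 6.67% to 11.6% of striatum, 48.4% to 74.7% of white matter, 90.0% to 96.8% of hypothalamus and 82.7% to 88.7% of thalamus spots. Unthinned shares were 28.1% to 34.1% in cortex and 96.9% to 100% in hypothalamus. Gfap was seen in 18.1% to 26.0% of thinned cortex spots and 77.9% to 83.9% of white matter spots. Cortex and striatum stood apart from the other regions in how many spots held Agt. At a fixed number of counts per spot this share rises with the level, so it restates the level in large part and is no separate support.

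Over the 18 values of region and set, centred within each set, Agt and Slc6a11 had a Pearson r of 0.974, and Slc1a2 had -0.852 with Agt and -0.837 with Slc6a11. Gfap had 0.869 with Aldh1l1 and -0.222 with Slc1a2. These values share sections and counts, so the correlations are descriptions with no test. Spot by spot, Agt and Slc6a11 had r of 0.765 to 0.861 over the sets in white matter, 0.291 to 0.790 in hypothalamus and 0.535 to 0.679 in thalamus. In cortex the pair had 0.038 to 0.182 and in striatum 0.143 to 0.295, where Agt counts were few. In cortex the pairs with the highest median r were Slc1a3 with Gja1 (0.656, from 0.577 to 0.719), with Mfge8 (0.627, from 0.539 to 0.654) and with Slc1a2 (0.608, from 0.573 to 0.755), and Gfap with Aqp4 had 0.501 to 0.720. Slc1a3 and Slc1a2 also had a positive r from spot to spot in striatum (0.274 to 0.498) and in hypothalamus (0.229 to 0.326). Their r was -0.042 to 0.0996 in white matter and -0.391 and -0.287 in thalamus. The summed level of Slc1a3 in hypothalamus was above cortex and that of Slc1a2 below it, which is a difference between regions and not between spots.

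The genes outside the 9 with the most similar pattern were found by the same r over the 18 values. For Agt they were Igsf1, Sdsl and 2310022B05Rik (0.995, 0.995 and 0.995), and for Slc6a11 Atp13a4, Vbp1 and Ret (0.992, 0.992 and 0.991). Slc1a2 was most like Cox8a, Dio2 and Ephx4 (0.987, 0.984 and 0.969). Gfap was most like Yipf6, Specc1 and Rela (0.976, 0.971 and 0.968), and Aqp4 most like Epb41l3, Cat and Fgd3 (0.976, 0.973 and 0.973). Gja1 was closest to Slc6a9, Eci1 and Plpp3 (0.983, 0.981 and 0.981), Aldh1l1 to Dip2a, Ano4 and Pigz (0.974, 0.966 and 0.963), Slc1a3 to Dpf3, Gpc3 and Slc27a3 (0.963, 0.960 and 0.958), and Mfge8 to Gramd4, Vstm2l and Thra (0.942, 0.935 and 0.932). Slc6a9, the glycine transporter gene, and Dio2, the gene of the enzyme that activates thyroid hormone, are themselves expressed by astrocytes.

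Other astrocyte genes were read from lists with the same rule, as ratios of CPM + 1 to cortex. Of the 24 general astrocyte genes, 13 were higher in white matter and 0 lower, with a median log2 ratio of 0.75. Ntsr2, a neurotensin receptor gene, led at a ratio of 2.63, followed by Hepacam, a cell adhesion gene, at a ratio of 2.19. In hypothalamus 8 were higher and 0 lower (median log2 ratio 0.40), with Ntsr2 at a ratio of 2.41 and the bicarbonate transporter gene Slc4a4 at 2.01. In thalamus 6 were higher and 1, Htra1, a secreted protease gene, was lower at a ratio of 0.615 (median log2 ratio 0.28). The potassium channel gene Kcnj10 led in thalamus at a ratio of 2.53. In striatum Slc4a4 was higher at a ratio of 2.63 and Sparcl1 lower at 0.560, and the other 22 were not called (median log2 ratio 0.14).

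The list for astrocytes outside the telencephalon held 10 genes: Agt, Slc6a11, Slc6a9, Itih3, Irx1, Irx2, Irx5, Sparc, Timp4 and Htr2b. The level filter passed 5 in striatum, 6 in white matter, 6 in hypothalamus and 7 in thalamus. Since a gene low in cortex can pass only through a region where it is high, the number called among those that passed is no support and the values are given as a description. The median ratio to cortex of Itih3, which encodes a hyaluronan-binding protein, was 6.56 in white matter, 18.4 in hypothalamus and 8.94 in thalamus. Sparc, a secreted matrix protein gene, was at 7.07, 12.3 and 7.16, and the transcription factor gene Irx1 was at 9.31 in thalamus. Of the telencephalic list, 5 of 7 genes passed. This list includes Mfge8, whose ranges in white matter and hypothalamus overlapped cortex. In white matter and in hypothalamus 1 of the 5 was higher and 2 were lower, and in thalamus 0 were higher and 2 lower. Striatum likewise had 0 higher and 2 lower, so lower calls were seen in every region compared with cortex. The median log2 ratio of the list was -0.20 in striatum, -0.12 in white matter, -0.64 in hypothalamus and -0.35 in thalamus. Of all genes, 18.5% to 20.9% were called in either direction, and with 5 genes the numbers called are a description. Lhx2, a transcription factor gene that neurons also express, was at 0.378 in white matter and 0.153 in hypothalamus. Tril went against the name of this list, at 1.87 in both white matter and hypothalamus.

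Of the list for fibrous and reactive astrocytes, 10 of 12 genes passed the level filter in white matter, 9 in hypothalamus and 8 in thalamus. A gene can pass through the region where it is high, so the numbers called are a description. In white matter 6 of the 10 were higher and 0 lower, Gfap included, beside 11.9% of all genes higher. C4b, a complement gene, was at 11.6 there and Cd9, which oligodendrocytes also express, at 5.36. Hypothalamus had 3 of 9 higher and 1 lower, and thalamus 1 of 8 higher and 2 lower. Fabp7, a fatty acid binding protein gene, was at 4.21 in hypothalamus and 3.48 in thalamus. Igfbp2 and S100a6 had the lowest median ratios in both regions among the genes of this list other than Gfap. Of 11 genes for amino acid transport and metabolism, members included, 4 were higher in white matter, 7 in hypothalamus and 4 in thalamus, with Slc1a2 the only one lower in hypothalamus and thalamus. Slc6a9 was at 5.28 in white matter, 3.41 in hypothalamus and 3.68 in thalamus, and Abat, the GABA transaminase gene, at 2.44 in hypothalamus and 2.50 in striatum.

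Markers of other cells moved between the regions as well. In white matter 6 of 6 oligodendrocyte precursor genes and 4 of 7 microglia genes were higher than cortex, beside 11.9% of all genes. A gene can pass the level filter through the region where it is high, so the numbers called are a description. Of the oligodendrocyte precursor genes, 4 were also higher in hypothalamus, 1 in striatum and 1 in thalamus, while 0 of the 7 microglia genes were called in those 3 regions. Of 8 general neuronal genes 4 were lower in white matter, 4 in striatum, 4 in hypothalamus and 3 in thalamus. The shares of all genes lower were 8.26%, 10.5%, 8.98% and 9.78%. The neuronal sum was 10345 to 11257 CPM in cortex, 4932 to 6192 in white matter, 5606 to 6148 in striatum, 5949 to 6556 in hypothalamus and 7895 to 8665 in thalamus. Endothelial and mural genes had 0 of 5 called in any of the 4 regions, where 18.5% to 20.9% of all genes were called. Their sum was 175 to 306 CPM in cortex and 249 to 377 in white matter. Meninges genes were summed at 53.3 to 83.2 CPM in cortex and 79.6 to 132 in white matter. Tanycyte genes, from the specialised ependymal cells of the ventral hypothalamus, were summed at 25.9 to 50.6 CPM in cortex, 83.0 to 208 in hypothalamus and 142 to 232 in thalamus, with 1 of the 5 passing the level filter. The part of these differences in the CPM of the 9 genes was not tested.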

How the data were processed

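Per the labels, Visium CytAssist for FFPE tissue, version 2, was run on sections of 4 mice. Raw counts of genes by spots were deposited as 1 table for all sections. Per the submitters' processing notes, Space Ranger and Seurat were used; versions, genome build, probe set and any spot filter are not given in the sources used here. The table held 12602 spots; 1 had fewer than 500 counts and was left out. Of its genes, 66 had no count.

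Marker genes were set on log2(counts per 10000 + 1) and z-scored, and a spot took the list with the highest mean if it passed that list's Otsu threshold. Counts were summed per region and barcode set and divided by the total. Levels have exact Poisson intervals, ratios exact conditional binomial intervals and shares Clopper-Pearson intervals (95%). A gene was called at 1.5-fold in every set with at least 30 spots of both regions, with a pseudocount of 1 CPM and a mean of at least 10 CPM. The median ratios of the 9 genes in the sensitivity values are on plain CPM. Members, lists and region markers were chosen with earlier results of these data known. The genes named were the 9 members, from each other list genes among the 2 genes with the highest and the 2 with the lowest median ratio in a region, and the 3 most similar genes per member; some list genes are not reported here. Lists were also read for choroid plexus, meninges, endothelium, tanycytes, microglia, oligodendrocyte precursors and neurons. The steps were tested on simulated data.

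Alternatives were TMM and RLE factors (edgeR 4.0.16), counts per spot, CPM without marker and member counts, 2-fold, a margin of 0.5 between scores, each part of the marker lists, a minimum of 5000 counts, no ventricle or surface spots, Leiden clusters (scanpy 1.11.5, resolution 0.8, 26 clusters) and each set left out. Python 3.11.15, R 4.3.3 and scipy 1.17.1 were used.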

Additional observations from a re-analysis of the deposited data

Results flagged for a closer look

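In 36 combinations of gene and region with 4 barcode sets, the gap of the highest or lowest set to the nearest other was set against Dixon's 95% critical value. It was larger in 2, and chance gives about 1 in 20. Both were set 4 in striatum, which held the fewest striatum spots (492) and counts per spot. Gfap was at 74.0 CPM there, against 38.1 to 40.3 CPM in the other sets. Without the 10% of striatum spots highest in ependymal markers the highest set was still at 68.4 CPM. Agt was at 13.5 CPM in striatum of set 4, against 8.78 to 9.34 CPM in the others.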

How the results depend on the processing

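No paired analysis was possible because no barcode set can be matched to a mouse, genotype or replicate number. Of 540 alternative values for the 9 genes in 4 regions, 511 kept their direction and their side of 1.5-fold, 24 fell below it, 5 passed it and 0 called values changed sign. White matter kept 5 genes past 1.5-fold in every alternative, though by counts per spot Slc1a2 and Mfge8 stood in place of Aqp4 and Gja1. Striatum had 0 in place of 1 without ventricle and surface spots, with CPM without marker and member counts, at 2-fold and with Leiden clusters. Hypothalamus had 3 in place of 6 with TMM, RLE and counts per spot and at 2-fold, and thalamus had 3 in place of 6 at 2-fold. With each set left out in turn, the counts stayed at 1 in striatum, 5 in white matter and 6 in hypothalamus and thalamus, where thalamus then rests on 1 set if set 1 or 4 is left out. Leiden clusters gave the same region to 95.1% of 7164 spots that both assigned. With the first part of the marker lists the Gfap call in hypothalamus ended (median log2 ratio 1.77), and with the second part that of Slc1a3 did (0.68). Gfap passed 1.5-fold in thalamus with a margin of 0.5 (0.78), with the second part of the lists (1.00) and with Leiden clusters (0.96). The splits of white matter by next list and of regions by surface or ventricle markers were chosen after seeing the data. Depth limits Agt in cortex and striatum, where its mean was near the 10 CPM filter.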

Other observations

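The 1434 unassigned spots, of which 1166 were within 0.5 of a second list's score, belong to no region comparison. Agt was at 166, 140, 122 and 190 CPM in them in sets 1 to 4, between the striatum and hypothalamus levels of each set. Mfge8 was at 191, 152, 219 and 160 CPM, above cortex of the same set in all 4. The general astrocyte genes summed to 9322 to 12598 CPM in these spots, and choroid plexus genes to 219 to 62324 CPM.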
